A study of Trachinotus blochii with 12 samples.

Results

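Liver was set against brain in golden pompano, Trachinotus blochii, an ocean fish farmed for food, after a day of severe hypoxia. All 6 libraries of tolerant fish (Tol), 3 of liver and 3 of brain, were used, out of 12 in the series, and they were chosen by their labelled status and tissue alone. Tol fish were 2 months old, were fasted during the trial, were held at 0.9 mg of oxygen per L (give or take 0.1) and still looked normal after 24 h. The 6 libraries of intolerant fish (Intol), 3 of liver and 3 of brain, came from fish of the same age, under the same oxygen and also fasted, that lost their balance within 1 h. They enter below only where the tissue difference of Tol fish is read against theirs. For each status 42 fish were taken, 14 from each of 3 tanks of 80 fish, and oxygen was lowered over 2 h. Every fish in the series was under hypoxia, so a tissue difference at normal oxygen was not measured. Whether a library held 1 fish or a pool, and whether liver and brain came from the same fish, is not stated in the labels, and p-values therefore measure the spread between these libraries, which may be technical.

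The liver is the main factory of blood proteins and a centre of glucose and lipid metabolism, and hepatocytes make up most of its mass. The brain is a mixture of many types of neuron and glia, each with its own set of transcripts. In vertebrates the liver is known for a transcriptome dominated by few very abundant messages and the brain for one spread over many genes. The gene models of this fish carry serial numbers, with no gene names in the files, so functions are not given, and 0 of 47 marker genes for liver, brain, blood, pancreas, vessel and macrophage cells could be matched. Tissue identity was therefore checked only by likeness between libraries. Across the 14306 gene models kept, the correlation of log2 values was 0.986 to 0.992 among the 3 Tol livers and 0.992 to 0.993 among the 3 Tol brains, but 0.291 to 0.301 between a liver and a brain.

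Values are 1 number per gene model for 18490 models, read as FPKM, which is scaled by the length of the model and the size of the library. They summed to 590988, 600698 and 611601 in the Tol livers and to 370163, 366577 and 373167 in the Tol brains. These sums are not read counts, and depth is unknown. In whole tissue, fewer cells of a type and less RNA per cell cannot be told apart.

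The liver transcriptome of Tol fish was held by few gene models and that of the brain by many. The single most abundant model made up 8.94% ± 0.80 of the summed values in liver and 1.27% ± 0.05 in brain (SD, n = 3 each). The 100 most abundant models of each library made up 66.1% ± 2.1 in liver and 24.6% ± 0.05 in brain. To reach 50% of the sum took 53, 53 and 42 models in the 3 livers, against 661, 664 and 658 in the 3 brains. Liver replicate 3 was the most concentrated of the livers, and no liver came near any brain. To reach 90% took 623 ± 77 models in liver and 6451 ± 30 in brain, about 10.3 times as many in brain. The effective number of models, the exponential of the Shannon entropy of the shares, was 335 ± 43 in liver and 3837 ± 11 in brain. The two-sided exact permutation p was 0.1 for every measure in this paragraph, and 3 against 3 libraries cannot give a smaller one.

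**Figure D1:**
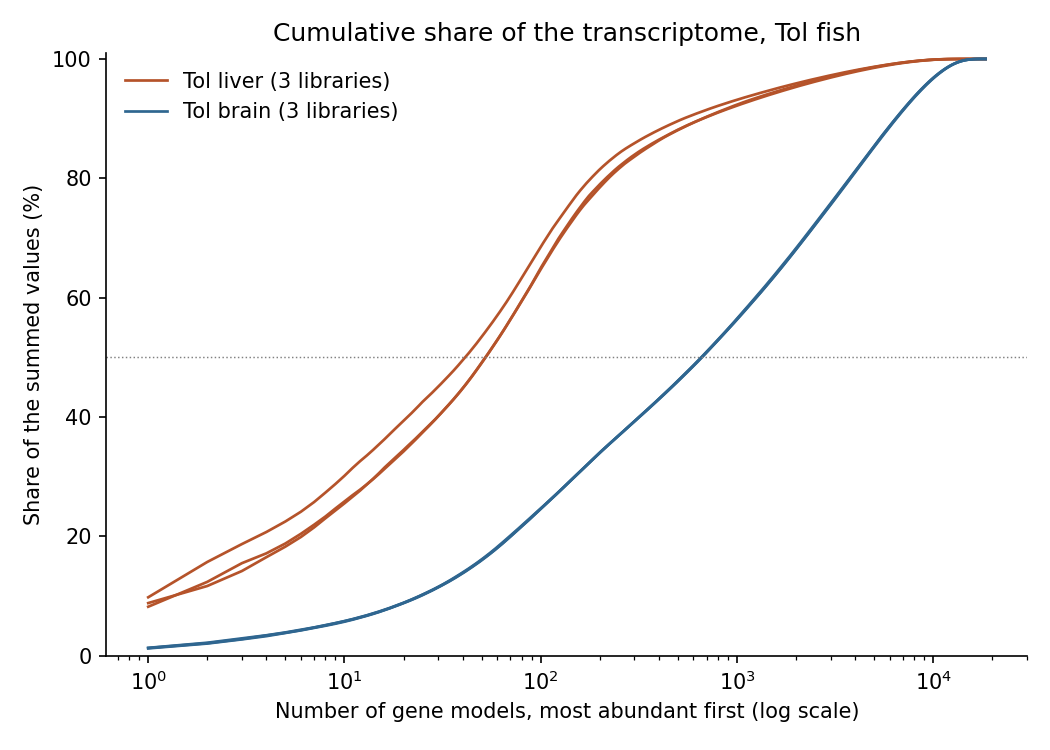
Share of the summed values (%) against the number of gene models, most abundant first on a log axis, with 1 line for each of the 3 Tol liver and 3 Tol brain libraries. Liver lines cross 50% (dotted) at 42 to 53 models and brain lines at 658 to 664.

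The difference in concentration was still present beyond the top of the lists. With the 10 most abundant models of each library taken out and the rest rescaled, 81.0 models on average held 50% of the sum in liver and 790 in brain. As deposited, the values left after the 100 most abundant models summed to 203762 ± 9760 in liver and 278832 ± 2655 in brain (SD, n = 3 each). The two-sided exact permutation p was 0.1. This order depends on the scaling and does not measure concentration. Median-ratio scaling, described below, divides liver values by 0.465 to 0.513 and brain values by 2.09 to 2.10, which turns the order round.

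Abundance classes differed at both ends. Models with a value of 1000 or more numbered 126, 128 and 123 in the livers and 22, 23 and 25 in the brains, without overlap. They held 71.3% ± 1.5 of the summed values in liver and 9.76% ± 0.45 in brain. In the middle, from 10 to 100, there were 1809 ± 82 models in liver and 5980 ± 25 in brain, and they held 8.30% ± 0.56 of the liver sum and 43.7% ± 0.17 of the brain sum. At the low end 4134 ± 116 models were listed at 0 in liver and 1269 ± 30 in brain, although a listed 0 can be a failed estimate. Between 1 and 10 the ratio of the counts was closest to 1, with 6179 ± 143 models in liver and 7576 ± 29 in brain. The median value over all models was 0.67, 0.77 and 0.71 in the livers and 5.58, 5.50 and 5.54 in the brains. Scaling a library by 1 factor leaves the share held by a fixed number of its most abundant models as it is, but it moves models across the class limits and so changes the class counts, the class shares and the medians. After median-ratio scaling the mean of the medians was 1.48 in liver and 2.64 in brain.

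**Figure D2:**
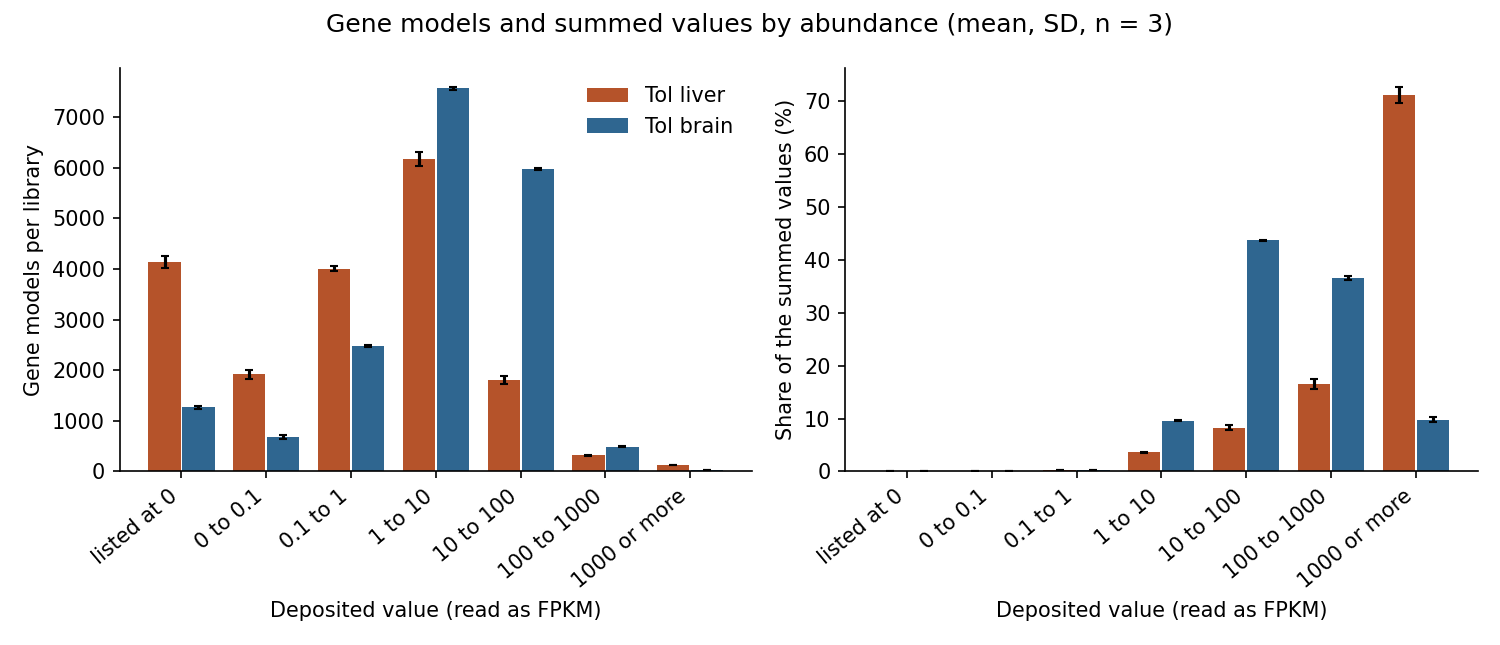
Number of gene models per library (left) and their share of the summed values in % (right) by the deposited value, with Tol liver left of Tol brain in each class, as mean and SD over 3 libraries. The class of 1000 or more holds 71.3% of the liver sum and 9.76% of the brain sum.

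As deposited, more models reached a value of 1 in brain than in liver, and most that reached it in liver also did in brain. A value of 1 or more in all 3 libraries was reached by 7806 models in liver and 13686 in brain, and 7217 models reached it in both. These common models were 92.5% of the liver set and 52.7% of the brain set. They made up 73.2% of the liver sum and 71.1% of the brain sum. A model counts as common here however far apart its levels are, so these shares do not measure like output. The most abundant liver model, at a mean of 53753 in liver and 292 in brain, is among them. Within the common set the median of the deposited values was 4.50 in liver and 13.2 in brain. Median-ratio scaling divides liver values by 0.465 to 0.513 and brain values by 2.09 to 2.10, so this order depends on the scaling. On average 8429 models per liver and 14070 per brain reached 1 as deposited, and 10083 and 12557 after median-ratio scaling. Across these 7217 models, which share libraries, r was 0.510 and rho 0.421 between mean log2 levels of the tissues, as a description only. Models at 1 or more in all 3 libraries of a tissue and below 1 in all 3 of the other numbered 469 for liver and 5442 for brain.

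How much the lists of most abundant models shared depended on their length. None of the 10 most abundant liver models was among the 10 most abundant brain models, by mean value. Still, 5 of these 10 brain models had a mean of 100 or more in liver, and 2 of the 10 liver models had one in brain. Of the 100 most abundant in each tissue, 57 were the same models, and of the 1000 most abundant, 350. Within a tissue, 93 of the 100 were common to all 3 libraries, both in liver and in brain.

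The 57 models abundant in both tissues held 22.2% ± 1.2 of the liver sum and 13.2% ± 0.19 of the brain sum, with a median value of 2125 in liver and 814 in brain. Their liver-minus-brain differences ran from 0.77 to 2.49 on the log2(value + 1) scale. Between libraries the median coefficient of variation of their values was 4.18% in liver and 2.73% in brain. The models were picked for high values in both tissues, which fixes the height of their levels and limits how far their differences can spread. The other 43 of the 100 liver models held 43.8% ± 3.4 of the liver sum, had a median of 0.897 in brain, and lay below 1 in all 3 brains for 17 models. The other 43 of the 100 brain models held 11.4% of the brain sum and had a median of 46.0 in liver, with 13 below 1 in all 3 livers.

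Almost every gene model tested differed between liver and brain in Tol fish in the values as deposited. Of the 14306 models that reached 1 in 3 or more of the 6 libraries, 13603 (95.1%) passed a Benjamini-Hochberg adjusted p under 0.05 in limma on log2(value + 1). In the values as deposited, 1717 (12% of those tested) were higher and 11886 (83.1%) were lower in liver. The 3 liver values lay wholly above or below the 3 brain values for 13625 models (95.2%). The median difference was -1.68, and from the 5th to the 95th percentile the differences ran from -4.71 to 1.98.

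The count in each direction depended on how the libraries were scaled. Median-ratio scaling, which sets the typical model to the same level in all libraries, moved the median difference to -0.26, and 5011 models (35%) were then higher and 7039 (49.2%) lower in liver, 84.2% in all. Quantile normalization, which gives all libraries the same distribution, left 5799 (40.5%) higher and 6155 (43%) lower, with a median of -0.04. The share of calls that were lower in liver was 87.4% as deposited, 58.4% after median-ratio scaling and 51.5% after quantile normalization. All 3 ways called 1642 models higher and 5579 lower in liver, while 2607 models were lower as deposited and higher after median-ratio scaling. Differences of at least 5 on the log2 scale numbered 224 higher and 569 lower in liver as deposited, 388 and 179 after median-ratio scaling, and 303 and 250 after quantile normalization. All 57 models abundant in both tissues were called higher in liver as deposited and after median-ratio scaling, but 8 were called higher and 36 lower after quantile normalization, so their direction was not settled. No value at hand shows which scaling is right.

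**Figure D3:**
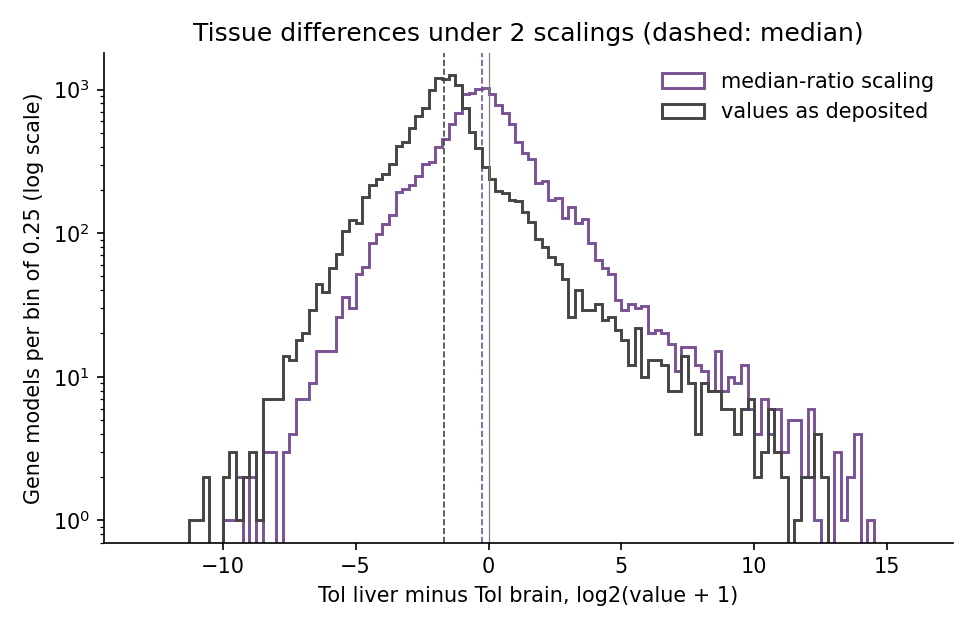
Number of gene models (log axis, bins of 0.25) by the Tol liver minus Tol brain difference on the log2(value + 1) scale, with median-ratio scaling and with the values as deposited, over 14306 models. The medians (dashed) are -0.26 and -1.68, and the liver tail reaches past 12.

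The liver model with the largest difference was Trachinotus_GLEAN_10007319, whose function is not annotated here. It had values of 16914.58, 25025.5 and 36211.71 in Tol liver, against 3.88, 1.85 and 3.72 in Tol brain. The groups lay more than 3 decades apart, although the liver values themselves spread widely, and the difference was 12.59 ± 0.31 on the log2 scale (SE; limma adjusted p = 1.2e-08). In Intol fish it had 9156.7, 8599.75 and 11977.69 in liver and 3.84, 8.02 and 1.38 in brain. All 3 Intol livers thus lay below all 3 Tol livers. The tissue difference of Tol fish minus that of Intol fish, the interaction, was 1.56 ± 0.60 and did not pass (SE; limma adjusted p = 0.0833).

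The most abundant liver model was Trachinotus_GLEAN_10010244, with 52109.53, 49285.91 and 59862.45 in Tol liver and 297.25, 281.07 and 299.04 in Tol brain. It was thus also well represented in brain, and both groups were tight. Its difference was 7.51 ± 0.07 on the log2 scale (SE; limma adjusted p = 7.6e-10).

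On the brain side, Trachinotus_GLEAN_10011443 had the largest difference, with 0.52, 0.46 and 0.22 in Tol liver and 2987.44, 2976.94 and 3204.64 in Tol brain. It was thus close to 0 in every liver and among the highest values in every brain. Its difference was -11.10 ± 0.11 on the log2 scale (SE; limma adjusted p = 7.6e-10).

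The most abundant brain model, Trachinotus_GLEAN_10017870, had 145.24, 221.22 and 242.67 in Tol liver and 4759.87, 4473.83 and 4902.54 in Tol brain. It was not confined to brain, since its liver values stood far above the median of all models in liver, 0.717. Its difference was -4.56 ± 0.18 on the log2 scale (SE; limma adjusted p = 1.3e-07). Each of these 4 models kept its direction and its call after median-ratio scaling and quantile normalization. For Trachinotus_GLEAN_10017870 the difference was -2.45 after median-ratio scaling and -6.48 after quantile normalization, and for Trachinotus_GLEAN_10010244 it was 9.63 and 5.25.

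Among models within 0.5 of equal levels, the most abundant was Trachinotus_GLEAN_10015662, with 515.13, 549.49 and 646.22 in Tol liver and 685.65, 600.73 and 714.76 in Tol brain. The groups overlapped, and the difference of -0.23 ± 0.10 (SE) had a limma adjusted p of 0.0684. The call rested on single libraries, since the difference passed without Tol liver replicate 3 (-0.32; limma adjusted p = 0.00753) and without Tol brain replicate 2 (-0.30; limma adjusted p = 0.0458). The difference was 1.89 after median-ratio scaling and -1.47 after quantile normalization, so equal levels were not shown.

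**Figure D4:**
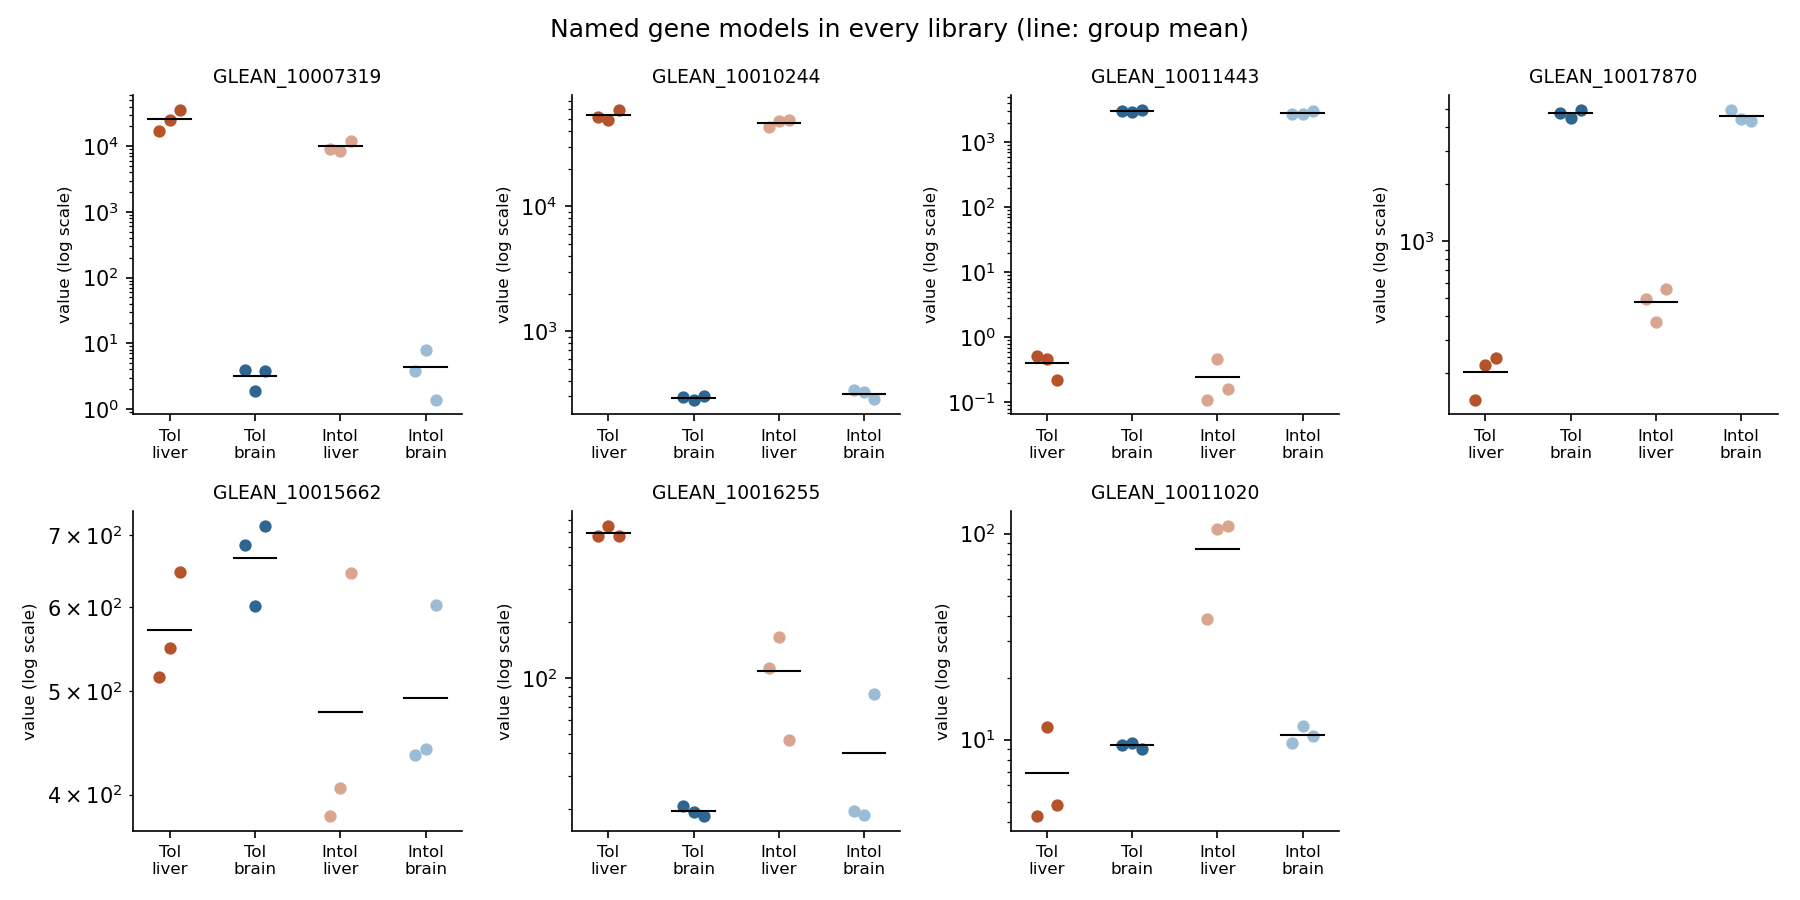
Deposited values (log axes, read as FPKM) of the 7 named gene models in all 12 libraries, 1 point per library with a line at the group mean, ordered Tol liver, Tol brain, Intol liver, Intol brain. The first pair of models stands higher in liver and the next pair higher in brain, GLEAN_10015662 overlaps between the tissues, and the last pair differs between Tol and Intol liver.

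Tissue-restricted models were then counted, as those at 1 or more in all 3 libraries of a tissue and below 0.1 in all 3 of the other. There were 129 such models for liver and 2414 for brain, which were 1.65% of the models at 1 or more in liver and 17.6% of those in brain. They held 2.25% ± 0.17 of the liver sum and 14.6% ± 0.10 of the brain sum (SD, n = 3 each). Their median value was 14.0 in liver for the liver set and 7.21 in brain for the brain set, with highest means of 1607 and 2048. In the other tissue 56 of the 129 liver models were listed at 0 in all 3 brains, and 1054 of the 2414 brain models were listed at 0 in all 3 livers. These counts follow the scaling and the limits: after median-ratio scaling they were 234 for liver and 1574 for brain. At the edge of the limit, 20 liver models had a highest brain value of 0.08 to 0.09, just inside it, and 15 had 0.10 to 0.11, just outside. On the brain side the corresponding numbers were 175 and 150.

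The limit of 0.1 left out most of the abundant liver output, because abundant liver models were rarely below 0.1 in brain. Of 126 models with a mean of 1000 or more in liver, 2 were below 0.1 in all 3 brains, while 43 had a brain mean of at most 1% of their liver mean. With a relative limit, chosen after the values were seen, of at most 1% of the own-tissue mean in each library of the other tissue, 264 models were of liver type and 2294 of brain type. The 264 liver models held 44.6% ± 2.9 of the liver sum, and the 2294 brain models held 20.9% ± 0.06 of the brain sum. As deposited, the order of the tissues by share of output therefore turned round with the limit, while brain had more such models under both. The relative limit compares levels between tissues and so depends on the scaling. This class was not recounted under another scaling, so its counts and shares hold for the deposited values only. In the relative class 42 liver models and 7 brain models had a mean of 1000 or more.

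**Figure D5:**
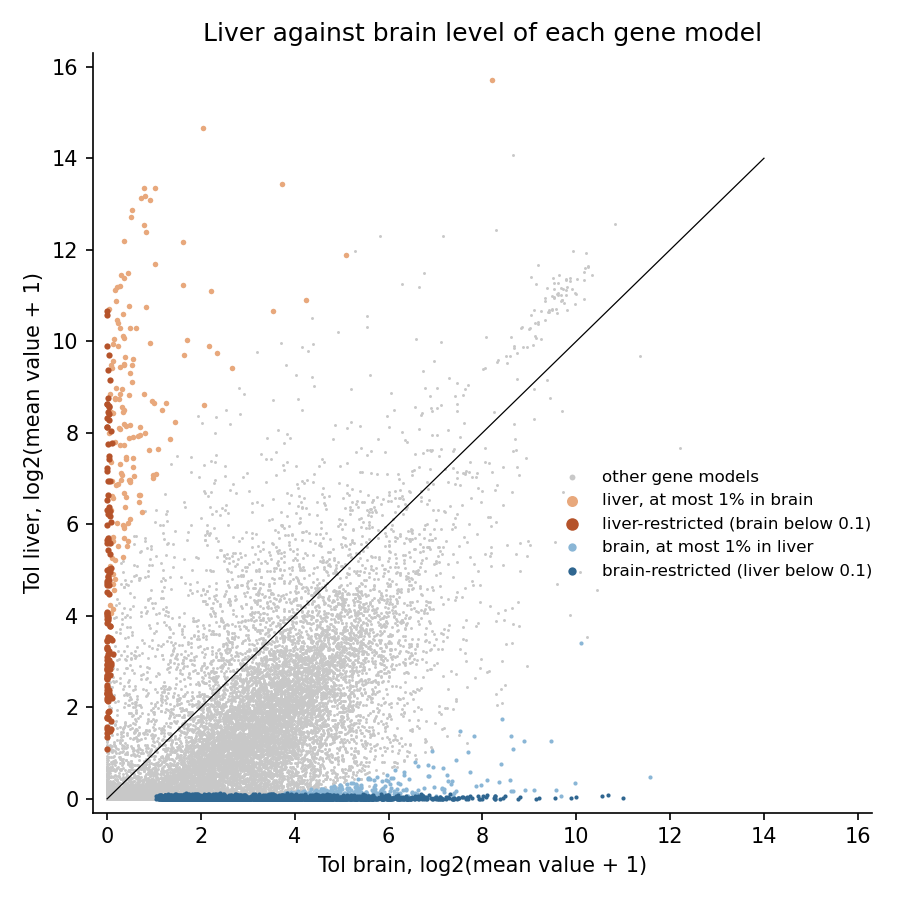
Mean Tol liver level against mean Tol brain level of 18490 gene models, both as log2(mean value + 1), with the line of equality. Dark points are the 129 liver-restricted and 2414 brain-restricted models, pale points are further models at or below 1% in the other tissue, and the shared abundant models form the grey cloud near the upper right end.

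Most of the abundant liver models in the relative class were read at low values in every brain library. The 42 liver models of 1000 or more in the relative class had median values of 0.345, 0.400 and 0.565 in the 3 Tol brains, and 34, 32 and 39 of them reached 0.1. Their highest values there, 297.25, 281.07 and 299.04, were those of Trachinotus_GLEAN_10010244, which was not low in brain. In the middle of the group a Tol brain value was 0.00946% to 0.0178% of the liver mean. Intol brains had medians of 1.13, 2.59 and 0.380 for the same models, so that 2 of the 3 Intol brains lay above all Tol brains. The models were picked for low Tol brain values, with no such limit on Intol brains, so this order is a description only. The 7 brain models of this kind had medians of 0.04 to 0.08 in the Tol livers. Whether these low values are expression in the tissue itself was not tested.

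The Intol libraries, which played no part in choosing the restricted models, gave a reading of how well the classes held. Of the 129 liver-restricted models 121 were at 1 or more in all 3 Intol livers, and 74 were below 0.1 in all 3 Intol brains. Both conditions were met by 69 models, 53.5% of the Tol list and 67.0% of the 103 models that met the same limits in Intol fish. In single Intol brains 17, 36 and 19 of the 129 reached 0.1, with a highest value of 2.17. Of the 2414 brain-restricted models 2295 were at 1 or more in all 3 Intol brains and 2004 were below 0.1 in all 3 Intol livers. Both were met by 1921, which were 79.6% of the Tol list and 92.6% of the 2075 models that met the limits in Intol fish. In the Intol livers 256, 162 and 268 of these brain models reached 0.1, against 0 in Tol livers by the rule itself. With the relative limit of 1%, 235 liver models were shared, 89.0% of the Tol list and 85.8% of the Intol list. On the brain side 1902 models were shared at this limit, 82.9% of the Tol list and 93.7% of the Intol list.

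Levels varied more between livers than between brains in each of the abundance classes from 1 upward. For models of 10 to 100 the median coefficient of variation over the 3 libraries was 13.9% in liver and 5.80% in brain, and for models of 1000 or more it was 5.99% in liver and 3.60% in brain. The restricted models had a median of 19.4% in liver for the liver set, above each of the 4 liver classes, and 9.21% in brain for the brain set.

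Serial numbers were compared because the order of the models was not used by any rule. Of the 251 liver models in the relative class whose next number was also listed, 25 (9.96%) were followed by another member, where the class made up 1.43% of all models. For the 2046 brain models this was 312 (15.2%), where the class made up 12.4%. The longest run was 5 consecutive numbers in each relative class. Of 123 liver-restricted models with a listed next number, 5 (4.07%) were followed by another member, where the class made up 0.698% of all models. For 2169 brain-restricted models this was 351 (16.2%), where the class made up 13.1%. The longest run was 2 in the liver-restricted and 5 in the brain-restricted class. Whether numbers follow the genome is not given in the sources used here, and reads shared between similar neighbours were not examined.

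In the values as deposited, most tissue calls of Tol fish were also made in Intol fish. In its own fit, the Intol comparison called 13049 of 14285 models (91.3%). Of 14040 models tested in both, 12311 were called in the same direction, which was 92.2% of the Tol calls and 95.8% of the Intol calls, and 155 were called in opposite directions. The median difference was -1.68 in Tol and -1.46 in Intol. Of the 14040 models 13349 were called in Tol and 12846 in Intol. Most calls were lower in liver in both, 11886 in Tol and 11122 in Intol over all models tested. Much of the agreement therefore follows from these shares, and it was not computed under another scaling.

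Where the difference itself was tested, 3540 of 14817 models (23.9%) had a tissue difference in Tol fish unlike that in Intol fish (limma interaction over 12 libraries, adjusted p under 0.05). The liver-minus-brain difference was above that of Intol fish for 542 models (3.66%) and below it for 2998 (20.2%), but for 1704 and 1500 after median-ratio scaling. Without Tol brain replicate 1 the number above was 353. Of these 3540 calls, 2087 were among the 6892 models at 1 or more in all 12 libraries, 352 above and 1735 below. Of the 129 liver-restricted models 13 were above and 30 below, 33.3% in all. Of the 2414 brain-restricted models 35 were above and 151 below, 7.71% in all, against 23.9% of all models tested. These classes were picked from Tol values that also enter the interaction, so the counts are a description only.

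The model with the highest interaction among those present everywhere was Trachinotus_GLEAN_10016255. It had 570.49, 650.6 and 574.6 in Tol liver and 20.78, 19.36 and 18.35 in Tol brain, against 113.79, 166.23 and 46.91 in Intol liver and 19.4, 18.66 and 82.08 in Intol brain. Tol liver lay above every other library, while the Intol groups overlapped, with Intol liver replicate 3 below Intol brain replicate 3. The tissue difference was 4.87 in Tol and 1.60 in Intol, with an interaction of 3.27 ± 0.75 (SE; limma adjusted p = 0.0106), which was 2.59 without Intol brain replicate 3.

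The lowest interaction was that of Trachinotus_GLEAN_10011020, with 4.26, 11.55 and 4.82 in Tol liver and 9.43, 9.66 and 9.04 in Tol brain, against 38.57, 105.16 and 109.08 in Intol liver and 9.66, 11.59 and 10.43 in Intol brain. Brain values were alike in all 6 brains, and all Tol livers lay below all Intol livers. As deposited, its tissue difference was -0.51 in Tol, where it did not pass the test (limma adjusted p = 0.146), and 2.75 in Intol. After median-ratio scaling the Tol difference was 1.35 and passed (limma adjusted p = 0.00415), so its direction in Tol fish was not settled. The interaction as deposited was -3.26 ± 0.54 (SE; limma adjusted p = 0.00224).

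The gap between tissues was also compared for the 4 measures per library fixed for testing. The number of models at 1 or more differed between liver and brain by -5641 in Tol and -4830 in Intol fish, and the share of the 10 most abundant models by 21.4 percentage points in Tol and 16.7 in Intol. After median-ratio scaling the first of these was -2473 in Tol fish. With status exchanged within each tissue in all 400 arrangements, the two-sided exact permutation p was 0.04 for the first and 0.055 for the second. The median value differed between liver and brain by -4.82 in Tol and -4.36 in Intol fish (permutation p = 0.02). The number of models for 50% of the sum differed by -612 in Tol and -612 in Intol fish (permutation p = 1). In Intol fish 58.7 models on average held 50% of the sum in liver and 670 in brain, so this concentration was not particular to Tol fish. The equal gaps do not show equal livers, because the large brain numbers set most of the gap. It took 53, 53 and 42 models in Tol livers and 59, 59 and 58 in Intol livers, without overlap, while Intol brains ran from 655 to 694. The difference between Tol and Intol livers was not tested. After Benjamini-Hochberg adjustment over the 4 measures the smallest permutation p was 0.0733, so no gap passed.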

How the data were processed

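All 12 libraries carry values for 18490 gene models, with at most 2 decimals. Per the labels' protocols, RNA with an integrity number above 8 went into TruSeq libraries, which were read as 125-bp pairs on an Illumina HiSeq, and filtered reads were assembled with Trinity. The unit is stated nowhere. The deposited values were read as FPKM because they are not whole and their sums differ. No aligner, counter, build or scaling is named by the labels or headers. The file of Intol brain replicate 2 also holds 18490 values headed Intol brain replicate 1, all equal to that library's own, and not used. Among the 6 Tol libraries at most 2.91% of values above 0 were identical in any pair.

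Tests used limma 3.58.1 (R 4.3.3) with variance trend, robust moderation and group means on log2(value + 1), for models at 1 or more in at least 3 of the libraries fitted. Calls are those with a Benjamini-Hochberg adjusted p under 0.05, and differences are liver minus brain. On simulated data (10 draws), the tissue fit over 14306 models recovered 94.4% of changes of 1 and 99.5% of changes of 2 on the log2 scale with 5.55% false calls. The interaction fit over 14817 models recovered 75.9% and 97.7% with 4.30%. These draws gave each model a moderated spread scaled by group, and this design replaced an earlier one that had given more false calls. With the earlier design, in which each group had the SD of its own 3 libraries, false calls were 13.7% in the tissue fit and 16.8% in the interaction fit, and recovery was 83.0% and 97.8%, and 72.2% and 96.1%. Simulated noise was independent between models and unchanged models had no shift. Changes were put into 100 models of each size, only among those with a mean log2 value above 2. In the data 95.1% of tested models were called. The moderated spread came from the same moderation that the fit uses, which favours a false-call rate close to the adjusted p threshold of 0.05. These rates therefore do not describe the calls in the data. Measures per library were compared by exact permutation tests (SciPy 1.17.1). Other steps used pandas 2.3.3, NumPy 2.4.6, matplotlib 3.10.9 and Python 3.11.15.

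Named models are those with the largest difference in each direction (mean above the median, groups apart), the most abundant called model of each tissue, the most abundant within 0.5 of equality, and the largest interaction each way among models at 1 or more in all 12 libraries. Members, classes, lists and tests were chosen with earlier results of these data known. Alternatives covered scaling, pseudocounts of 0.1 and 5, filters, limma options, a replicate block, class limits and each library left out; library weights and the 1% limit were added after the data were seen.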

Additional observations from a re-analysis of the deposited data

Results flagged for a closer look

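The tissue difference was unlike in Tol and Intol fish for 3540 of 14817 gene models by the interaction test. Among the named models, Trachinotus_GLEAN_10016255 (interaction 3.27) and Trachinotus_GLEAN_10011020 (-3.26) were chosen for it. Trachinotus_GLEAN_10017870, named as the most abundant brain model, also passed, with an interaction of -1.29 ± 0.26 (SE; limma adjusted p = 0.00546). It had 145.24, 221.22 and 242.67 in Tol liver and 494.8, 372.53 and 554.61 in Intol liver, with 4759.87, 4473.83 and 4902.54 in Tol brain and 4940.13, 4412.16 and 4300.01 in Intol brain. Tol and Intol fish also differed by 23 h of hypoxia and fasting, so status and time cannot be told apart.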

How the results depend on the processing

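Scaling changed the counts of calls, and both scaling and the class limits changed the counts of restricted models. Median-ratio scaling gave 5011 models higher and 7039 lower in Tol liver, quantile normalization 5799 and 6155, against 1717 and 11886 as deposited. With a mean value of at least 5 as the filter 6501 were lower, in another set of tested models whose number is not given here. The interaction counts of 542 above and 2998 below became 1704 and 1500 after median-ratio scaling and 1169 and 1369 after quantile normalization. When only the 6892 models with a value of at least 1 in all 12 libraries were fitted anew, 1908 were below. The main fit had 1735 of these 6892 below, so the smaller total reflects fewer models tested and not a loss of calls. Liver-restricted and brain-restricted models, 129 and 2414, became 56 and 1054 with a listed 0 in the other tissue, 323 and 4094 below 0.5, 234 and 1574 after median-ratio scaling, and 264 and 2294 at the 1% limit. A value of at least 5 in the own tissue gave 1369 brain models. Trachinotus_GLEAN_10015662 turned to 1.89 after median-ratio scaling. The Tol difference in models at 1 was -2473 after median-ratio scaling, against -5641 as deposited. With each library left out, higher calls ranged from 1632 to 1786 and lower from 11773 to 11903, and interactions from 353 to 685 above and from 2132 to 3289 below. Liver-restricted models ranged from 132 to 150 and brain-restricted from 2443 to 2549. Leaving a library out only relaxes the rule for restricted models, so these counts could not fall below 129 and 2414. The tissue differences with a library left out ranged from -5734 to -5579 for models at 1, from -4.85 to -4.80 for the median, from 19.9 to 22.2 percentage points for the 10 most abundant and from -613.5 to -608 for models holding 50% of the sum.

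Same-numbered liver and brain libraries deviated together only weakly (r = 0.037, 0.004 and 0.045 in Tol and 0.041, 0.089 and 0.124 in Intol), so numbers were not taken as pairs. With the replicate block 1728 models were higher and 11909 lower, and interactions numbered 496 and 2765. Trachinotus_GLEAN_10015662 then passed (-0.23; limma adjusted p = 0.0283). In the Tol deviations, 2 of 3 livers correlated best with the brain of their own number. Of 246 recalculated values, 222 kept direction and side of the threshold, or stayed within 1.5 times for counts. This tally overstates stability. Measures per library could not change side, since their exact permutation p was 0.1, or 0.2 with a library left out. Median-ratio scaling cannot alter the share of the most abundant models or the number of models for 50% of the sum. Counts of restricted models could only stay or rise with a library left out. Most named models were picked for a large difference, a large interaction or high abundance, which favours an unchanged call. Depth is unknown, so no counting interval or floor was given for low values.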
